A study of Homo sapiens with 6 samples.

Results

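Imprinted genes lying outside the DLK1-DIO3 cluster were followed as a group of 35 genes, listed by name, of the 58830 genes in one expression table. All 35 were found in the table by their symbol. They fell into 19 loci. By common knowledge of human imprinting, 19 are expressed from the paternal allele and 7 from the maternal allele, and for 9 the expressed allele depends on the isoform or tissue or is not settled. The RNA came from HuES8, an established human embryonic stem cell line, differentiated towards definitive endoderm, the germ layer of gut, liver and pancreas. The 3 KD libraries were made from cells with the antisense RNA GATA6-AS1 knocked down. The 3 DE libraries were made from wild-type cells. In DMEM-F12 with 0.2% BSA, both groups received 100 ng/mL Activin A with 2.5 µM CHIR for 1 day and Activin A alone for 2 days. The sources used here do not state how GATA6-AS1 was knocked down or whether DE cells carried a control construct. The labels do not say whether the replicates were separate cultures. The p-values therefore stand for the scatter among the 6 libraries alone, some or all of which may be technical.

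Genomic imprinting marks genes in egg and sperm so that 1 parental copy is used and the other is kept silent. A methylated control region usually holds the mark and steers several genes of a domain, often through an antisense or noncoding RNA. Many imprinted genes act on fetal and placental growth, with IGF2 and its antagonists as the textbook case. The deposited values sum both alleles and all isoforms of a gene, so they measure its RNA level and do not show which allele was read.

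Values are TPM, which scale the reads of a gene to its length and to the library total. Reads were estimated from the steps between low TPM values for the 37138 rows matched to 1 annotated gene. Their totals ran between 18640746 and 24510422 per library and leave out the other rows, IGF2 among them. Mitochondrially encoded RNA took 28.3%, 28.8% and 36.2% of TPM in KD replicates 1 to 3 and 28.5%, 24.6% and 38.0% in DE replicates 1 to 3. The third replicate was the lowest of its group in both KD and DE for 20 of the 26 tested members (76.9%, against 61.3% of all genes tested). The part of the mitochondrial share in the results was not tested, but fits without those genes are given below. GATA6-AS1 had 179.7, 163 and 126 TPM in KD and 389, 421 and 313 TPM in DE. Its log2 change was -1.26 (SE 0.164, limma adjusted p = 0.0128), and the highest KD value was under the lowest DE value. Without KD replicate 2 or without DE replicate 1 it no longer passed (limma adjusted p = 0.0612 and 0.0717). The endoderm marker SOX17 averaged 265 ± 73.3 TPM in KD and 551 ± 115 TPM in DE, and the stem cell factor POU5F1 1247 ± 105 TPM in KD and 682 ± 78.3 TPM in DE (SD, n = 3 each). POU5F1 passed (limma adjusted p = 0.0131), and SOX17 missed the threshold (limma adjusted p = 0.0530). SOX17 passed with the replicate block described below (limma adjusted p = 0.00757) and without mitochondrial genes (limma adjusted p = 0.0123). Of 12 endoderm markers tested 5 were lower in KD and none higher, with summed levels of 18578 to 20412 TPM in KD and 25578 to 29367 TPM in DE. Of 10 pluripotency markers 6 were higher and none lower, with sums of 3957 to 4498 TPM in KD and 3028 to 3831 TPM in DE. Over all genes tested, 1.77% passed as higher and 1.5% as lower in KD. The endoderm count was 10 with quantile scaling and without mitochondrial genes, 11 with the block, and 0 without KD replicate 2 or without DE replicate 1. The pluripotency count lay between 7 and 8 under the first 3 of these and was 1 under either of the last 2. Lists for other cell types differed in how they moved. Of 6 mesoderm markers tested, KDR and TBX5 were higher in KD and HAND1 was lower, with a median log2 change of -0.22. Their sum, mostly KDR at a mean of 121.8 TPM in KD and 83.9 TPM in DE, was 179 to 194 TPM in KD and 136 to 176 TPM in DE. Of 5 trophoblast and amnion markers, GATA2 and TFAP2C were higher and GATA3 and HAND1 lower, with sums of 53.5 to 56.8 TPM in KD and 69.2 to 73.7 TPM in DE. Both visceral endoderm markers tested, APOE and APOA2, were lower, and their list sum was almost wholly APOE, at a mean of 373 TPM in KD and 512 TPM in DE. Of that list, AFP, ALB and TTR were at or near 0 in both groups. No neuroectoderm or fibroblast marker passed, and their sums overlapped between the groups. In bulk RNA, fewer cells of a type and less RNA per cell cannot be told apart. The part of these marker differences in the values of imprinted genes was not tested.

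Promoter sequences are shown for BLCAP, GRB10 and L3MBTL1, which passed with the replicate block, and for SNURF and SNRPN, which passed neither fit. RefSeq windows of 300 bases (250 before and 50 after a transcript start, build GRCh38.p14) were matched by symbol for 21 of the 35 members, 47 distinct windows in all. SNURF and SNRPN share the window shown. GRB10, BLCAP and L3MBTL1 have several, of which the farthest upstream is shown. Each line gives the 250 bases before the start, 5′ to 3′ on the gene's strand. Capitals mark TGCCGC or its reverse complement GCGGCA, the letters that the imprint-protecting zinc-finger protein ZFP57 is known to read when methylated.
SNURF and SNRPN, chr15:24954737-24954986, plus strand: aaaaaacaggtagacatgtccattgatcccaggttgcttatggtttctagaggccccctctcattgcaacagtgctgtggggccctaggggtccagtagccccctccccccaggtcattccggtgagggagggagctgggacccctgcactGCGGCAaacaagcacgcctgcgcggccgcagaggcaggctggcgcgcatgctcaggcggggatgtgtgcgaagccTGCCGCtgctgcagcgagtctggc
BLCAP, chr20:37527877-37528126, minus strand: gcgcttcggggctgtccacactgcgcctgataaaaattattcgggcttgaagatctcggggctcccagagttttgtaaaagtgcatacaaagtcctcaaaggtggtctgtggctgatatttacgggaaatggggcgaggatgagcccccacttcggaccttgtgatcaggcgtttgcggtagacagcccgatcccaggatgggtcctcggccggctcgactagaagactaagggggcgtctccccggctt
GRB10, chr7:50793454-50793703, minus strand: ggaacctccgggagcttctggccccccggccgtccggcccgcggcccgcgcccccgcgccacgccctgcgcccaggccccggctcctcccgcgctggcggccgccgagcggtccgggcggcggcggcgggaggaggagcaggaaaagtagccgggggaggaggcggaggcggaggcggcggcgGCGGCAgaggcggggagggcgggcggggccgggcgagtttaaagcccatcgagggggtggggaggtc
L3MBTL1, chr20:43507447-43507696, plus strand: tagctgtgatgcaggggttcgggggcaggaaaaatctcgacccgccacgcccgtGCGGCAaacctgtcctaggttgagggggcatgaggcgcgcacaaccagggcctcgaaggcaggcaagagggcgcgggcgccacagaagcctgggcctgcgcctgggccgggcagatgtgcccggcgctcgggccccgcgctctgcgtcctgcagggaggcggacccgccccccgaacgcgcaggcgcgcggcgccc
The stretch before SNURF and SNRPN holds the letters 2 times, those of GRB10 and L3MBTL1 1 time each, and that of BLCAP 0 times. The whole 300-base BLCAP window holds them 1 time, at a place that reaches into the 50 bases not shown. For GRB10 and L3MBTL1 the window shown is the only one of the gene's windows that holds them. GNAS also passed with the block but is not shown. Its farthest upstream window holds them 1 time and its other windows 0 times. Over whole windows and both strands, TGCCGC occurred in 19 of 47 member windows (40.4%) and in 16.7% of 35114 windows of all genes. Member windows also held more CG steps, with a median of 18 against 14 in all windows, and some windows of 1 gene overlap each other. AGATAA, the letters of a GATA factor motif, occurred in 3 of 47 member windows (6.38%) and in 10.3% of all windows. A match is a description of letters and not of a bound site.

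The 35 genes differed widely in level. TPM are scaled for the annotated exon length of each gene and not for the isoforms expressed, so different genes compare only roughly. In DE, 6 members averaged 50 TPM or more. PEG10, a gag-pol gene captured from a retrotransposon, averaged 228 ± 12.0 TPM in KD and 286 ± 33.8 TPM in DE, and GNAS, the stimulatory G protein alpha subunit, 240.3 ± 14.1 TPM in KD and 277 ± 8.03 TPM in DE (SD, n = 3 each). INPP5F, MEST, GRB10 and IGF2R followed, with DE means between 51.4 and 117 TPM. At the other end, 9 members stayed under 1 TPM in every library: H19, KCNQ1OT1, PEG3, ZIM2, DLX5, MKRN3, ATP10A, DIRAS3 and KCNK9. A gene was tested when 3 or more libraries held 1 TPM or more, which these 9 did not meet. PLAGL1 and PEG13 passed the filter narrowly, with 3 libraries each at 1 TPM or more.

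**Figure D1:**
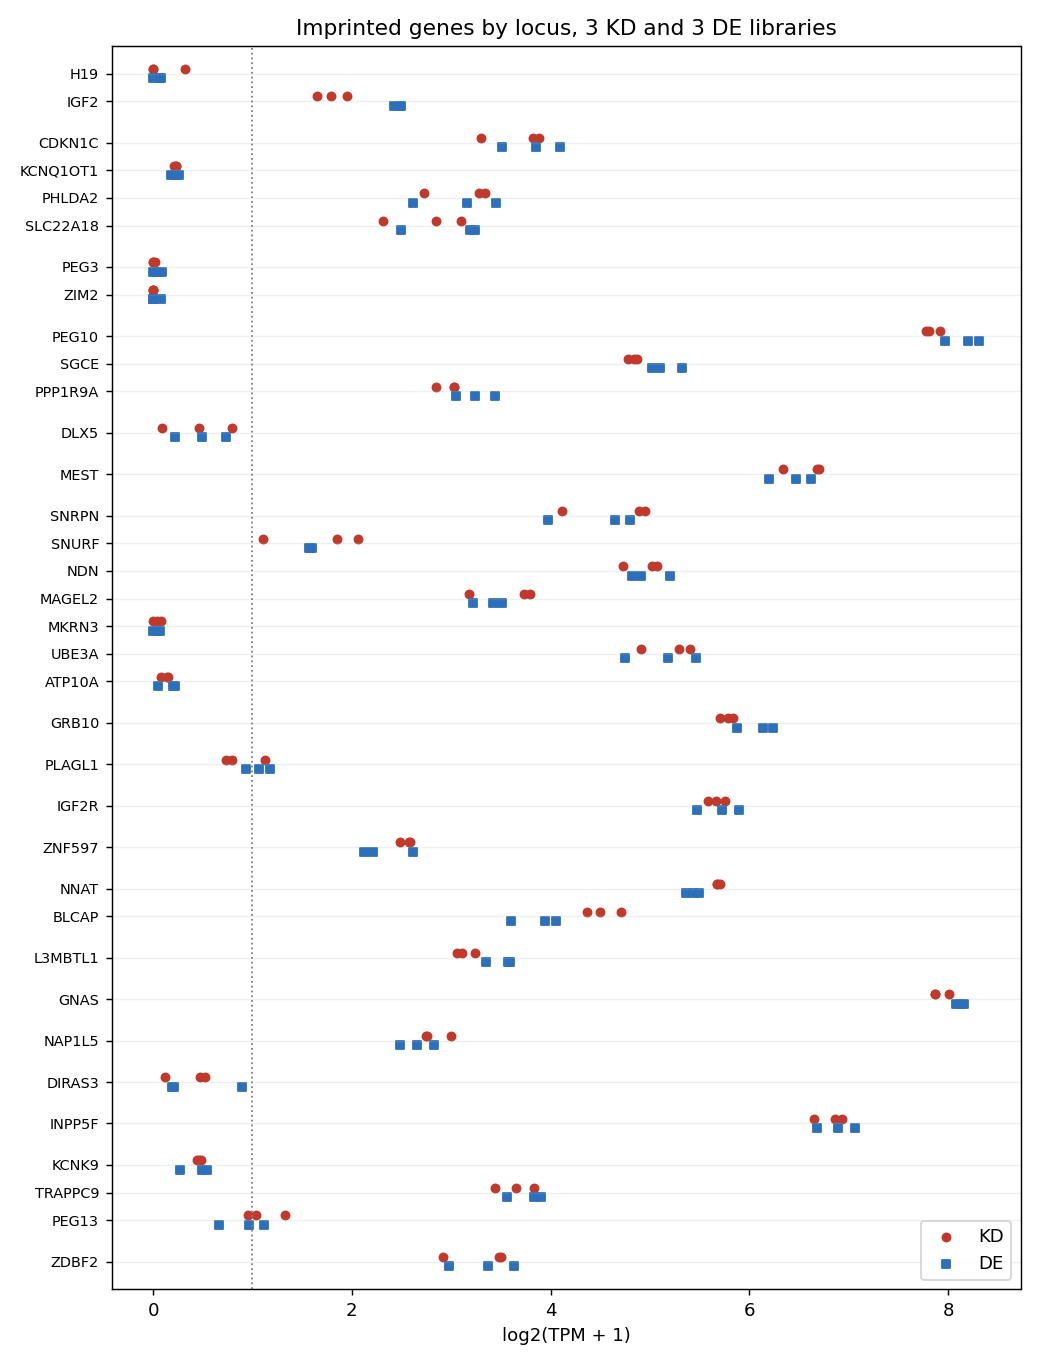
Level of the 35 imprinted genes as log2(TPM + 1), ordered by locus, with 1 point per library (circles for 3 KD libraries, squares for 3 DE libraries); the dotted line marks 1 TPM. The 9 untested genes lie left of the line in all libraries, and PEG10 and GNAS lie farthest right.

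The comparison of KD with DE asked which imprinted genes differed when GATA6-AS1 was knocked down. Of the 26 members tested, none passed limma's test at an adjusted p of 0.05 over all genes, where 3.27% of 17711 genes passed (1.77% higher and 1.5% lower in KD). At an unadjusted p under 0.05, 8 of the 26 (30.8%) passed, against 15.4% of all genes. The log2 changes ran between -0.67 for IGF2 and 0.66 for BLCAP, and 24 of the 26 were smaller than 0.5. For 24 of the 26 the 95% interval lay between -1 and 1, and the widest bound was 1.02. These changes are on the TPM + 1 scale. For members at a few TPM they understate the change of TPM itself, which such an interval does not bound. Of the log2 changes, 11 were above 0 and 15 below, with a median of -0.03 against -0.01 over all genes. The median size of a change, sign aside, was 0.18 for members and 0.15 for all genes.

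**Figure D2:**
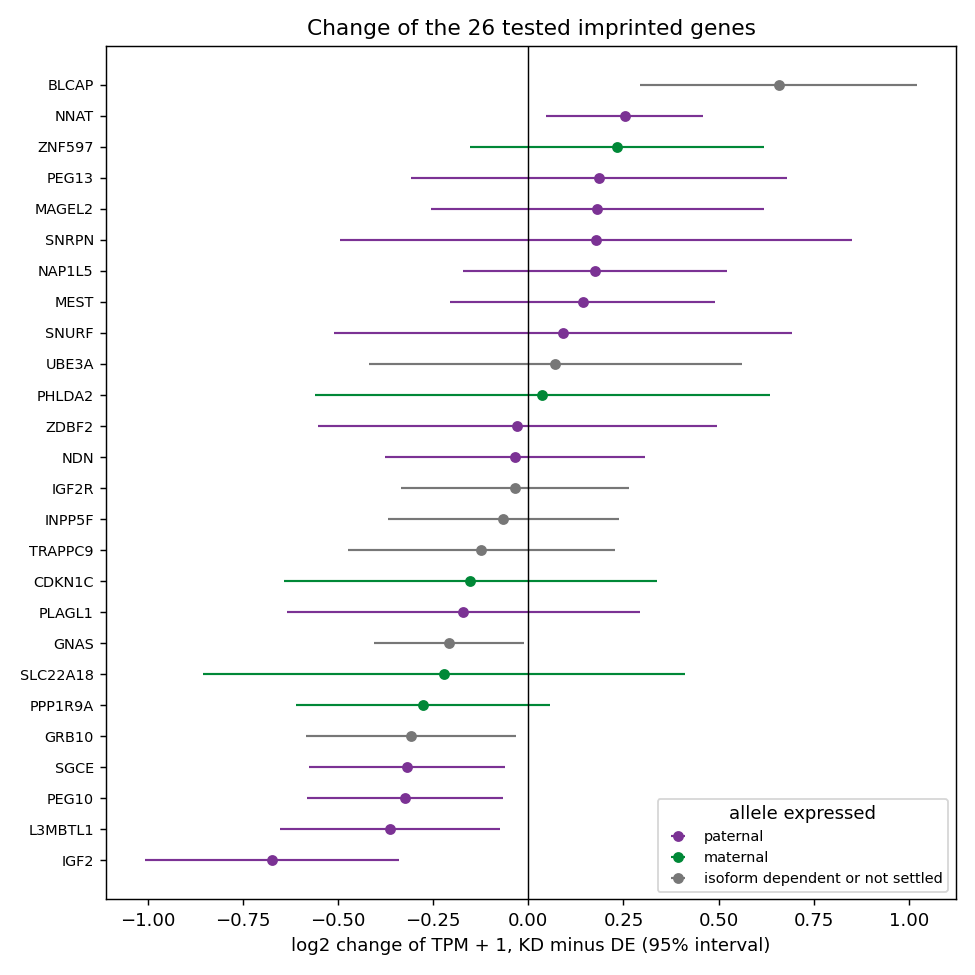
Log2 change of TPM + 1, KD minus DE, for the 26 tested genes, with 95% intervals from limma and colours for the allele each gene is known to be expressed from. BLCAP and IGF2 lie at the ends, at 0.66 and -0.67, and most intervals include 0.

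The replicate numbers in the sample titles allowed a fit with the number as a block. In it, 8 members passed (30.8%, against 12.5% of all genes). Of these, 6 were lower in KD (23.1%, against 6.62% of all genes), namely IGF2, PEG10, SGCE, GRB10, L3MBTL1 and GNAS. The 2 higher in KD (7.69%, against 5.88%) were NNAT and BLCAP. In all 8 the KD and DE libraries did not overlap. PPP1R9A made a ninth such gene, for 34.6% of members against 20.8% of all genes (10.1% higher and 10.7% lower in KD). These are shares of a list chosen with results known, and no test of the list was made. With TPM recomputed without mitochondrial genes, 5 members passed, where 9.62% of all genes did. BLCAP was higher (4.98% of all genes were), and IGF2, GRB10, SGCE and L3MBTL1 were lower (4.64% of all genes were).

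**Figure D3:**
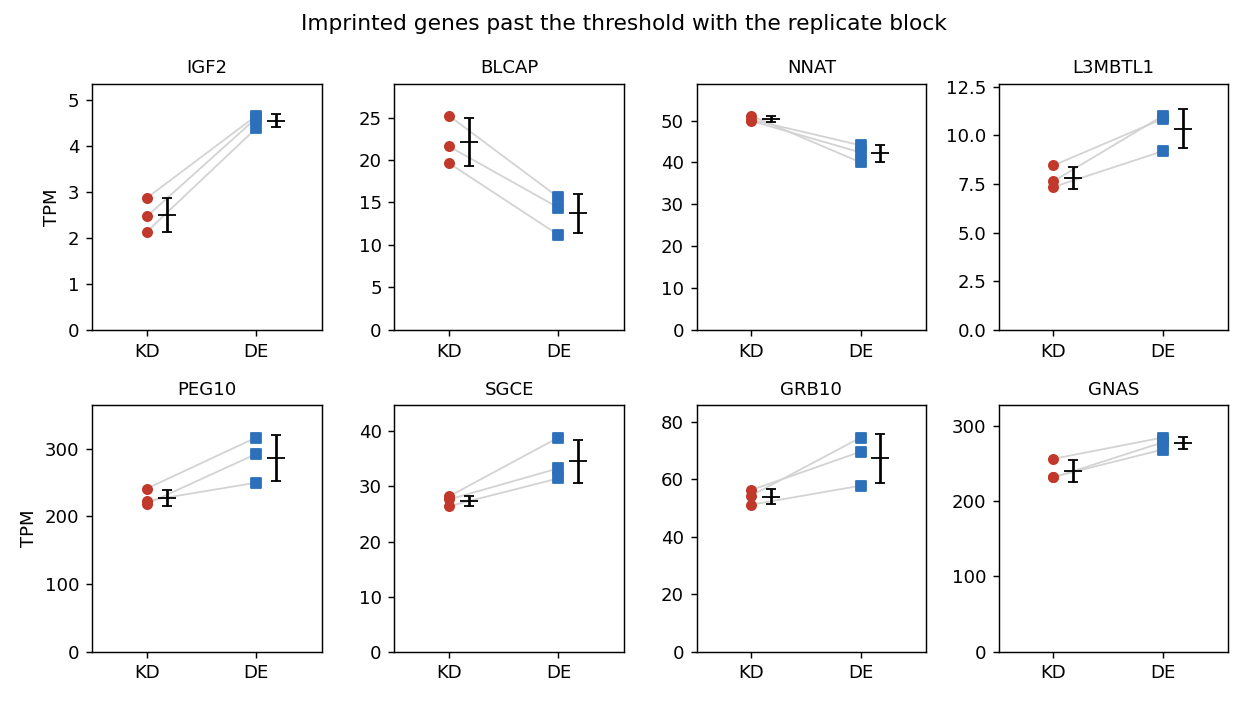
TPM of the 8 imprinted genes past the threshold with the replicate block; circles are KD libraries, squares DE libraries, grey lines join equal replicate numbers, and bars show mean and SD (n = 3). IGF2, L3MBTL1, PEG10, SGCE, GRB10 and GNAS lie lower in all KD libraries, and BLCAP and NNAT higher.

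In the H19-IGF2 domain, where a shared enhancer serves paternal IGF2 and maternal H19, KD had less IGF2 RNA. IGF2, a fetal growth factor that signals through IGF1R and INSR, had 2.47, 2.13 and 2.87 TPM in KD and 4.60, 4.38 and 4.65 TPM in DE. The groups did not overlap, and the ratio of KD to DE means was 0.548. The log2 change was -0.67 (SE 0.142), which missed the threshold (limma adjusted p = 0.0541). It passed with the replicate block (limma adjusted p = 0.0221), and over 14 alternatives the adjusted p lay between 0.0221 and 0.236. GENCODE 29 gives the symbol IGF2 to 2 overlapping genes on chromosome 11 (build GRCh38), from 2129112 to 2149603 and from 2129112 to 2158658, both on the minus strand, and neither length turned the values into whole reads. H19, a long noncoding RNA, had 0.251 TPM in KD replicate 1, the equivalent of about 4.10 reads, and was listed at 0 in KD replicates 2 and 3. In DE it had 0.0495 and 0.0548 TPM in replicates 1 and 3 and was listed at 0 in replicate 2. H19 was thus at the limit of detection in both groups.

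Among 14 tested genes of the IGF axis, 1 was higher and 1 lower in KD, where 1.77% and 1.5% of all genes were. Both were stanniocalcins, which restrain the release of IGF from its binding proteins. STC2 averaged 9.24 ± 1.03 TPM in KD and 3.22 ± 0.711 TPM in DE (limma adjusted p = 0.0131), and STC1 122 ± 11.7 TPM in KD and 202 ± 11.1 TPM in DE (SD, n = 3 each; limma adjusted p = 0.0153). Their log2 changes were 1.29 and -0.72. Neither passed without KD replicate 2 or without DE replicate 1, and STC2 did not without KD replicate 1. With the replicate block 3 genes of the axis were higher and 2 lower, where 5.88% and 6.62% of all genes were. The further ones were IRS1, IGFBP4 and IGFBP5. IGF1R, the main receptor, averaged 73.3 ± 3.18 TPM in KD and 70.4 ± 8.44 TPM in DE and did not pass (limma adjusted p = 0.900). IGF2R, which carries IGF2 to lysosomes, averaged 49.9 ± 2.98 TPM in KD and 51.4 ± 7.58 TPM in DE, and its log2 change of -0.03 had a 95% interval from -0.33 to 0.27. GRB10, an adaptor that dampens insulin and IGF receptor signals, had 56.2, 54.3 and 51.1 TPM in KD and 69.5, 74.5 and 57.7 TPM in DE. The groups did not overlap. The log2 change of GRB10 was -0.31 (SE 0.117, limma adjusted p = 0.264, with the replicate block 0.0417), and over 15 alternatives the adjusted p lay between 0.0141 and 0.613. The gene (ENSG00000106070.18) is on the minus strand of chromosome 7, between 50590063 and 50793462.

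The KCNQ1OT1 domain next to it on chromosome 11 holds the maternally expressed growth restrainers CDKN1C and PHLDA2. None of its 3 tested genes passed, with or without the replicate block. CDKN1C, which encodes the cell cycle inhibitor p57, had 13.8, 13.1 and 8.85 TPM in KD and 16.1, 13.5 and 10.4 TPM in DE. Each KD library was below the DE library of its number, while the groups overlapped. Its log2 change was -0.15 (95% interval from -0.64 to 0.34). SLC22A18, a membrane transporter, had 6.17, 7.57 and 3.98 TPM in KD and 8.47, 8.09 and 4.63 TPM in DE (log2 change -0.22, limma adjusted p = 0.840). PHLDA2, which limits placental growth, averaged 7.80 ± 1.90 TPM in KD and 7.67 ± 2.43 TPM in DE (SD, n = 3 each). The paternal antisense RNA KCNQ1OT1, known to silence this domain in cis, had 0.174, 0.171 and 0.159 TPM in KD and 0.195, 0.170 and 0.133 TPM in DE. Its annotated exon is 91667 bases long, so these low TPM stood for between 79.0 and 128 estimated reads. It lies antisense to KCNQ1, and with the strand setting unknown, unspliced KCNQ1 reads could not be told apart from it.

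Of the PEG10-SGCE domain of chromosome 7, the 3 genes among the 35 all lay lower in KD. PEG10 had 241, 218 and 223 TPM in KD and 317, 292 and 249.8 TPM in DE. SGCE, the epsilon-sarcoglycan gene that runs in the opposite direction from nearly the same start, had 27.6, 28.2 and 26.4 TPM in KD and 33.3, 38.9 and 31.5 TPM in DE. Neither gene's groups overlapped. The log2 changes were -0.32 (SE 0.110) for PEG10 and -0.32 (SE 0.110) for SGCE. Their limma adjusted p were 0.202 and 0.210, and with the replicate block 0.0298 and 0.0388. Over 15 alternatives the adjusted p lay between 0.0298 and 0.5795 for PEG10 and between 0.0340 and 0.461 for SGCE. PPP1R9A, a scaffold of actin and protein phosphatase, is reported as maternal and had 7.17, 7.15 and 6.19 TPM in KD and 8.46, 9.88 and 7.27 TPM in DE. The groups did not overlap, and the gene passed neither fit (log2 change -0.28 and limma adjusted p = 0.437 unpaired, with the block 0.117). PEG10 (ENSG00000242265.5) spans chromosome 7 from 94656325 to 94669695 on the plus strand, and SGCE (ENSG00000127990.17) from 94524204 to 94656572 on the minus strand. They share 219 exonic bases, 3.27% of the exon length of PEG10. The neighbour CASD1, 147106 bases from the start of PEG10, averaged 31.0 TPM in KD and 35.2 TPM in DE and passed neither fit. TFPI2 and CALCR, reported imprinted genes of the same stretch outside the 35, differed in direction. TFPI2 averaged 18.3 TPM in KD and 14.2 TPM in DE (log2 change 0.37), and CALCR 39.2 TPM in KD and 43.6 TPM in DE (log2 change -0.14). Neither TFPI2 nor CALCR passed either fit.

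Elsewhere on chromosome 7, MEST, an endoplasmic reticulum hydrolase also called PEG1, had 103, 101 and 79.8 TPM in KD and 87.3, 97.3 and 72.5 TPM in DE. Each KD library exceeded the DE library of its number, the groups overlapped, and the log2 change of 0.14 did not pass (limma adjusted p = 0.794). DLX5, a homeobox factor whose imprinting in human is disputed, stayed between 0.0653 and 0.729 TPM. On chromosome 19 the paternally expressed zinc-finger genes PEG3 and ZIM2 were close to 0 in both groups. PEG3 was listed at 0 in KD replicates 1 and 3 and DE replicate 3, and its highest value was 0.0672 TPM. ZIM2 was listed at 0 in all libraries except DE replicate 2, at 0.0550 TPM. These are the equivalent of at most 4.21 and 1.08 reads. The pair shares 1264 exonic bases, 41.2% of the exons of ZIM2, so reads there cannot be assigned to either gene.

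Chromosome 20 holds both genes that passed as higher with the replicate block. NNAT encodes neuronatin, a small membrane protein, and lies within BLCAP, which runs on the other strand. BLCAP, an endoplasmic reticulum and membrane protein gene with isoform-specific imprinting, had 21.6, 25.2 and 19.6 TPM in KD and 14.4, 15.6 and 11.2 TPM in DE. The lowest KD library exceeded the highest DE library, and the mean in KD was 1.61 times that in DE. Its log2 change was 0.66 (SE 0.155, limma adjusted p = 0.0731, with the replicate block 0.00525), and over 15 alternatives the adjusted p lay between 0.00451 and 0.282. NNAT had 50.2, 51.1 and 49.9 TPM in KD and 44.1, 40.0 and 42.4 TPM in DE, again without overlap. The log2 change was 0.25 (SE 0.0880, limma adjusted p = 0.212). NNAT passed with the replicate block by a very narrow margin (limma adjusted p = 0.049996), and this was the lowest adjusted p of 15 alternatives, the highest being 0.560. BLCAP (ENSG00000166619.13) spans 37492472 to 37527931 on the minus strand and NNAT (ENSG00000053438.9) 37521206 to 37523693 on the plus strand. They share 85 exonic bases, 6.38% of the exons of NNAT.

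L3MBTL1, a chromatin reader of methylated histones expressed from the paternal allele, was lower in KD on the same chromosome. It had 7.64, 8.46 and 7.35 TPM in KD and 11.0, 10.9 and 9.20 TPM in DE, without overlap. The log2 change was -0.36 (SE 0.123, limma adjusted p = 0.203, with the replicate block 0.0475), and over 15 alternatives the adjusted p lay between 0.0351 and 0.558. GNAS had 233, 232 and 257 TPM in KD and 269, 279 and 285 TPM in DE, also without overlap. Its log2 change was -0.21 (SE 0.0841, limma adjusted p = 0.295, with the replicate block 0.0468), and over 15 alternatives the adjusted p lay between 0.0468 and 0.685. The row sums all products of the locus, among which the alpha subunit itself is mostly biallelic and others are used from 1 parental copy. GNAS (ENSG00000087460.24), from 58839718 to 58911192, shares 1127 exonic bases with the antisense RNA GNAS-AS1. L3MBTL1 (ENSG00000185513.16) lies from 43489442 to 43550950 on the plus strand. Around the members past the threshold with the block, 14 other genes were tested within 250 kb (IGF2, without a single annotation, was left out). Of these, 1, lower in KD, passed without the block, where 1.5% of all genes were lower. With it 3 were lower, where 6.62% of all genes were, and 0 higher. CTSZ, the cathepsin Z gene near GNAS, passed without it at 45.6 ± 0.385 TPM in KD and 70.7 ± 4.90 TPM in DE (SD, n = 3 each; limma adjusted p = 0.0177). SRC near NNAT and STX16-NPEPL1 near GNAS passed only with the block (limma adjusted p = 0.0299 and 0.0419). NNAT and BLCAP were thus higher in KD beside SRC, which was lower.

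None of the 5 tested members of the SNRPN domain on chromosome 15, the region of Prader-Willi and Angelman syndromes, passed either fit. SNRPN, a spliceosomal protein, had 28.6, 29.9 and 16.3 TPM in KD and 26.8, 24.0 and 14.7 TPM in DE. The third replicate of each group was far below the others, and within each number KD was the higher (log2 change 0.18 and limma adjusted p = 0.893 unpaired, with the block 0.181). SNURF, read from the same transcript, had 3.17, 2.61 and 1.16 TPM in KD and 2.02, 1.99 and 1.98 TPM in DE. These stood for between 11.0 and 21.0 estimated reads, and 69.3% of the exon length of SNURF is shared with SNRPN. NDN and MAGEL2, both of the MAGE family, averaged 29.9 ± 3.81 and 11.0 ± 2.60 TPM in KD and 30.7 ± 4.59 and 9.48 ± 1.06 TPM in DE (SD, n = 3 each). UBE3A, the ubiquitin ligase used from the maternal copy in neurons, averaged 36.2 ± 6.38 TPM in KD and 34.7 ± 8.70 TPM in DE (log2 change 0.07, 95% interval -0.42 to 0.56). MKRN3 reached at most 0.0536 TPM and ATP10A 0.166 TPM.

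Beside the 35, 4 noncoding RNAs of the same domain were looked at, chosen after their values were seen. With the block 3 were higher in KD, where 5.88% of all genes were, and none of them passed without it. The remaining 1 was too low to test. SNHG14, the long host transcript that continues from SNRPN towards UBE3A, had 49.998, 53.0 and 47.1 TPM in KD and 34.6, 38.6 and 28.1 TPM in DE, without overlap (log2 change 0.57 and limma adjusted p = 0.0724 unpaired, with the block 0.00783). PWAR6 had 102, 101 and 77.2 TPM in KD and 62.0, 69.5 and 37.1 TPM in DE, without overlap (log2 change 0.76 and limma adjusted p = 0.169 unpaired, with the block 0.00783). PWAR5 also passed with the block (limma adjusted p = 0.0311) and not without it (limma adjusted p = 0.539), with groups that overlapped. PWRN1, below the filter, averaged 0.562 ± 0.247 TPM in KD and 0.563 ± 0.115 TPM in DE (SD, n = 3 each). NPAP1, a paternal coding gene of this region, was lower with the block, at 12.8, 12.3 and 9.98 TPM in KD and 18.2, 16.5 and 12.0 TPM in DE (limma adjusted p = 0.389, with the replicate block 0.0385). SNHG14 shares 198 exonic bases with UBE3A on the opposite strand. Genes of this domain thus lay on both sides of 0.

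**Figure D4:**
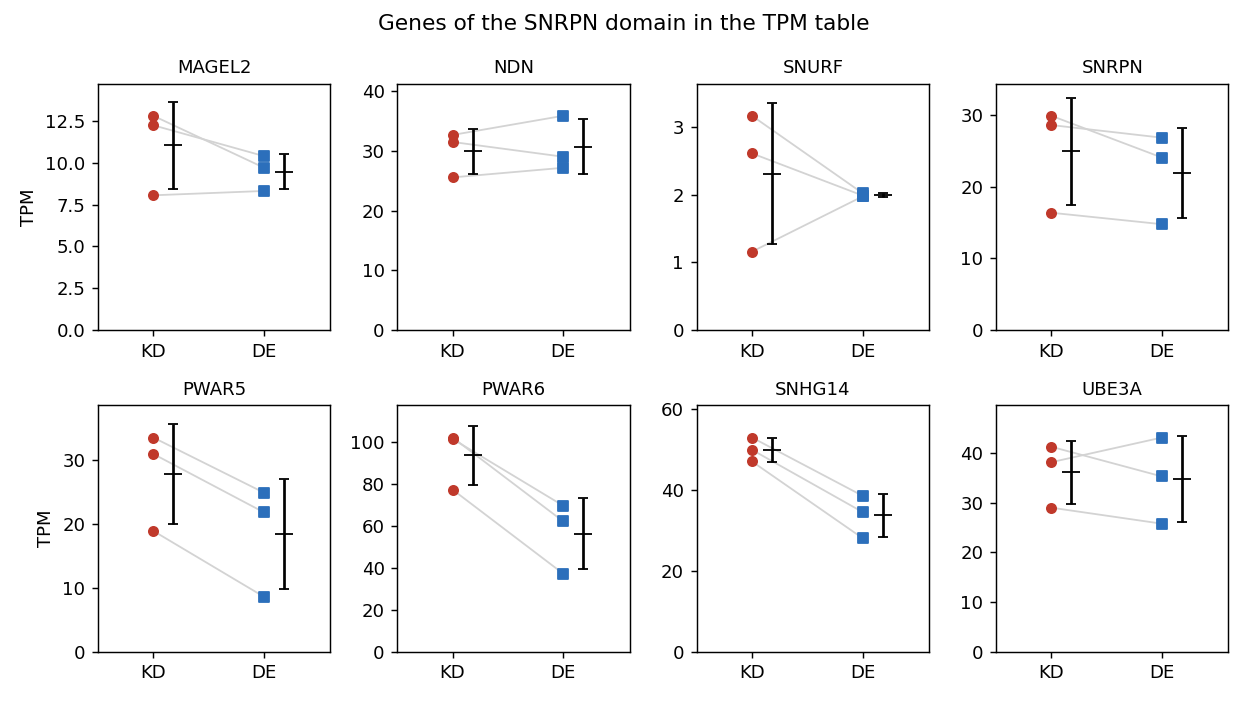
TPM of 8 genes of the SNRPN domain; circles are KD libraries, squares DE libraries, grey lines join equal replicate numbers, and bars show mean and SD (n = 3). SNHG14 and PWAR6 lie higher in all KD libraries, while the groups overlap for MAGEL2, NDN, SNURF, SNRPN, PWAR5 and UBE3A.

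The remaining members did not pass with or without the block. ZNF597, a maternally expressed zinc-finger gene of chromosome 16, averaged 4.85 ± 0.238 TPM in KD and 4.04 ± 0.947 TPM in DE (log2 change 0.23, limma adjusted p = 0.636). NAP1L5, a retrogene related to nucleosome assembly proteins, had 5.73, 7.01 and 5.70 TPM in KD and 5.30, 6.11 and 4.60 TPM in DE. Each KD library exceeded the DE library of its number, although the groups overlapped. PLAGL1, the zinc-finger factor ZAC1 of transient neonatal diabetes, was low, at 1.18, 0.740 and 0.667 TPM in KD and 1.27, 1.09 and 0.906 TPM in DE. INPP5F, a phosphoinositide phosphatase, averaged 112 ± 11.0 TPM in KD and 117 ± 15.9 TPM in DE, and ZDBF2 8.997 ± 2.11 TPM in KD and 9.20 ± 2.26 TPM in DE (SD, n = 3 each). TRAPPC9, a subunit of a vesicle tethering complex, averaged 11.5 ± 1.67 TPM in KD and 12.7 ± 1.68 TPM in DE. PEG13, a noncoding RNA in one of its introns, averaged 1.16 ± 0.302 TPM in KD and 0.903 ± 0.293 TPM in DE, on at most 47.9 estimated reads. The potassium channel gene KCNK9 stayed between 0.209 and 0.455 TPM and the growth-restraining GTPase gene DIRAS3 between 0.0899 and 0.863 TPM.

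Sorted by allele, 5 of 7 maternally expressed members were tested, with 2 log2 changes above 0 and 3 below and a median of -0.15. Of 19 paternally expressed members 14 were tested, with 7 above and 7 below 0 and a median of 0.03. Of the 9 with isoform-dependent or unsettled imprinting 7 were tested, with 2 above and 5 below 0 and a median of -0.07. The median over all genes was -0.01. The 8 genes that passed with the replicate block comprised 5 paternal genes, 1 higher and 4 lower, and 3 of the isoform-dependent or unsettled class, 1 higher and 2 lower. No maternal gene passed. The difference between the classes was not tested.

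A list of genes whose proteins set and keep imprints was looked at beside these genes, by RNA level alone. Of 18 tested genes of that list, DNMT3B was higher in KD and NLRP7 and NLRP2 were lower (3.27% of all genes passed). DNMT3B, a de novo DNA methyltransferase abundant in stem cells, averaged 617 ± 30.8 TPM in KD and 431 ± 45.2 TPM in DE (SD, n = 3 each; log2 change 0.52, limma adjusted p = 0.0448). NLRP7, mutated in recurrent hydatidiform mole, averaged 3.78 ± 0.246 TPM in KD and 6.78 ± 0.738 TPM in DE (limma adjusted p = 0.03996). NLRP2 averaged 1.21 ± 0.147 TPM in KD and 2.95 ± 0.473 TPM in DE (limma adjusted p = 0.0463). TRIM28, the corepressor that ZFP57 recruits, averaged 478 ± 35.8 TPM in KD and 457 ± 49.6 TPM in DE, and the maintenance enzyme DNMT1 87.9 ± 4.54 TPM in KD and 84.6 ± 3.84 TPM in DE. Neither passed, and ZFP57 itself averaged 1.32 ± 0.297 TPM in KD and 1.28 ± 0.444 TPM in DE. The call of DNMT3B was lost when any 1 library was left out. So were those of NLRP7 and NLRP2, except that NLRP7 passed without DE replicate 3. With the replicate block 2 genes of this list were higher and 3 lower, DNMT3A and UHRF1 being the additions. Of all genes, 5.88% were higher and 6.62% lower with the block.

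A further 27 tested genes known or reported as imprinted in human or mouse included 1 that passed, NLRP2, already counted in the list above, which was lower (3.27% of all genes passed). It did not pass when any 1 library was left out. With the replicate block 3 were higher and 2 lower (12.5% of all genes passed), namely SNHG14, PWAR5 and PWAR6 against NPAP1 and NLRP2. Without mitochondrial genes 3 were higher (4.98% of all genes were), SNHG14, PWAR6 and OSBPL5, and 1 lower (4.64% of all genes were), NLRP2. PWAR5 and NPAP1 did not pass there (limma adjusted p = 0.288 and 0.102). OSBPL5 averaged 8.63 TPM in KD and 6.42 TPM in DE and passed neither the main nor the blocked fit (limma adjusted p = 0.231 and 0.0501). The DLK1-DIO3 cluster on chromosome 14 gave other values than the 35 genes. All 4 of its tested genes, DLK1, MEG9, DIO3OS and DIO3, passed as lower in KD (1.5% of all genes did), with a median log2 change of -1.12. Without KD replicate 1, 2 of the 4 passed, and without KD replicate 2, DE replicate 1 or DE replicate 2, 1 of the 4 did. DLK1, a secreted Notch-related growth regulator, had 3.57, 2.31 and 2.47 TPM in KD and 7.95, 7.24 and 6.97 TPM in DE (limma adjusted p = 0.0151). The noncoding RNA MEG3 had 0.270, 0.234 and 0.220 TPM in KD and 0.984, 0.790 and 0.933 TPM in DE and was below the filter. All compared values come from the same 6 libraries, and no test of the difference between the cluster and the 35 genes was made.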

How the data were processed

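Total RNA of 6 HuES8 endoderm libraries was sequenced, and the values the authors deposited are TPM of 58830 genes, which sum to 1000000 in each library. Per the submitters' processing notes, HISAT2 2.1.0, featureCounts and DESeq2 were used and the build was GRCh38, without the step of each. The sources used here name no annotation release or strand setting. Groups and replicate numbers come from the sample titles. Members were matched by symbol. The members and gene lists were chosen with earlier results of these data known. The text names GATA6-AS1, every member, SOX17, POU5F1, DLK1, MEG3, genes of a list past the threshold and neighbours past it within 250 kb. Other list genes, CASD1 and the SNURF and SNRPN promoter were chosen after their values were seen, as was the use of the block to pick members for neighbours and promoters.

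The 17711 genes at 1 TPM or more in 3 or more libraries entered limma 3.58.1 in R 4.3.3 on log2(TPM + 1) with eBayes trend and group as the term. Fold changes are therefore on the TPM + 1 scale and understate low genes. All p-values are 2-sided and adjusted by Benjamini-Hochberg across those genes, and 0.05 was the threshold. The fit was also run on simulated data, and no result given here rests on that run. Coordinates and exon lengths are those of GENCODE 29 on GRCh38. Multiplying TPM by exon length for 37138 rows with 1 matching gene gave whole multiples of 1 constant per library, within 0.02 of a read, for between 88.3% and 89.0% of values under 50 reads, from which reads were estimated; they only describe depth. Python 3.11.15, numpy 2.4.6 and pandas 2.3.3 were used for the rest.

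The numbers 1 to 3 were treated as pairs by a rule that every same-numbered KD and DE library deviate together from its group mean with a correlation over 0.1. The correlations were 0.108, 0.144 and 0.347. The first is marginal, since KD replicate 1 and DE replicate 2 correlated at 0.121. KD replicate 2 and DE replicate 1 correlated at 0.0769. Deviations cancel out within a group, so a shift shared by the third replicates by itself raises every correlation among replicates 1 and 2. The rule therefore cannot tell whether the numbers 1 and 2 mark pairs. Blocked values assume pairs, which no label states and which this check cannot establish for the numbers 1 and 2.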

Additional observations from a re-analysis of the deposited data

How the results depend on the processing

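Over 15 alternatives to the fit of KD against DE, no call among the members was lost, since none passed in it. Counts of members past the threshold moved with the scaling and the block. With the replicate block 2 members were higher and 6 lower, and 2215 genes passed in all. Blocked values changed no call of a member other than those 8. The counts of higher and lower members were 1 and 4 with quantile scaling (1756 genes in all), 1 and 2 with median ratios (1753), 1 and 4 without mitochondrial genes (1700), and 1 and 2 without replicate 3 of both groups (1212). Without the variance trend 1 member, IGF2, was lower. No member passed with a pseudocount of 0.1, with no filter (239 genes in all) or with a mean of at least 5 TPM, under which IGF2 was not among the genes tested. Leaving out 1 library gave 0 members in either direction and between 87 and 610 genes in all, against 579 with all libraries. The cause was not tested.

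Signs turned for genes close to 0. PHLDA2 was at -0.0012 (log2 change) without replicate 3 of both groups. Without 1 library its log2 change lay between -0.19 and 0.23, that of CDKN1C between -0.31 and 0.032, SNRPN between -0.071 and 0.44, SNURF between -0.10 and 0.37, and NDN between -0.11 and 0.080. Those of UBE3A lay between -0.12 and 0.24, IGF2R between -0.15 and 0.064, INPP5F between -0.17 and 0.028 and ZDBF2 between -0.20 and 0.16. IGF2 kept a range of -0.75 to -0.60 and BLCAP of 0.53 to 0.75. Depth limits H19, PEG3, ZIM2, MKRN3, DLX5 and ATP10A, of which ATP10A reached most, 9.999 estimated reads in 1 library. DIRAS3 reached 11.4.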
